A study of Rattus norvegicus with 10 samples.

Results

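Chromosome 12 of the rat carried more captured regions per megabase than any of the other 19 autosomes in this methylation survey, and it also had the most tags per kilobase of region over 10 rats. Its regions were taken as every row of the count matrix positioned on chromosome 12, which gave 17743 of 716492 regions in all. Of these, 16 held no tag in any rat and 11684 passed the filter on low counts used for testing (65.85%, against 49.73% of the regions on the other autosomes). The survey compared the left hippocampus, CA3 and dentate gyrus, of male Sprague-Dawley rats 3 months after a traumatic brain injury (TBI, the columns marked TRM) or a sham operation (SHM), with 5 rats in each group. The injury was lateral fluid percussion, a brief wave of fluid pressure against the intact dura. The sham rats went through the surgery without that impact. No gene was altered and no drug was compared in either group. The injury model was used for post-traumatic epilepsy, a condition that not every injured rat develops.

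DNA was captured with a methyl-CpG binding domain protein and sequenced (MBD-seq). In mammals most methylation lies on cytosines followed by guanine. The binding domain holds fragments that carry several such methylated sites, so the number of tags over a region rises with methylation and with the number of sites in the sequence. A tag count is therefore a relative level, and differences between regions or chromosomes mix both quantities, while differences between rats at 1 region compare the same reference sequence. In hippocampal tissue a change in the mixture of cell types and a change of methylation within a cell type cannot be told apart. A methyl-capture count gives no marker RNA, so the labelled tissue was not checked against markers.

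Regions were packed more closely on chromosome 12 than elsewhere. There were 379.3 regions per Mb, measured up to the end of the last region at 46.78 Mb, against 231.4 on chromosome 2, a median of 275.3 and at most 352.0 on chromosome 10 among the other autosomes. Chromosome 12 was also the shortest autosome by this measure, the others ending between 55.26 and 267.9 Mb. The median gap between neighbouring regions was 790 bp, shorter than the 931 to 1361 bp of the other autosomes. Regions covered 33.53% of the chromosome, against 15.24% to 27.05% elsewhere. Chromosome 12 thus held 2.501% of autosomal regions on 1.829% of the autosomal span. These are fixed properties of the region set, which was merged over all libraries, and they have no replicate error. Per the methods of the study, the set merges regions that differed between pairs of libraries. It need not hold every captured stretch of the genome, and the densities count the regions of this set only.

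The regions of chromosome 12 were also longer. Their median length was 692 bp, the highest of the 20 autosomes (others 547 to 647.5 bp), and they ran from 160 to 10046 bp. The upper part of the distribution differed more than the lower part. The 10th percentile was 347 bp on chromosome 12 and 324 bp on the other autosomes, while the 90th percentile was 1648 bp against 1232 bp. Regions of 3000 bp or more made up 1.381% of chromosome 12, behind chromosome 20 (1.465%) and above the other 18 autosomes (median of all 19 others 0.4772%).

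Tag density set chromosome 12 apart in 9 of 10 rats. Scaled to 1000000 autosomal tags in each rat (normalised tags per kb of region), chromosome 12 had 2.581 ± 0.127 (SD over 10 rats), against 2.479 ± 0.120 on chromosome 20 and 1.766 to 2.479 on the other autosomes. It ranked first in every rat except sham rat 5, in which chromosome 16 was higher. The log2 ratio of tags per kb on chromosome 12 to that on the other 19 autosomes was 0.43, 0.33, 0.40, 0.47 and 0.20 in sham rats 1 to 5. It was 0.40, 0.43, 0.42, 0.42 and 0.42 in TBI rats 1 to 5. All 10 rats were above 0, with sham rat 5 the lowest. The mean was 0.39 ± 0.08 (SD, n = 10), a 1.31 ± 0.067-fold higher density, and the exact two-sided sign-flip permutation test gave p = 0.00195, the smallest value 10 rats can give. Without sham rat 5 the mean was 0.41 ± 0.04 (SD, n = 9). Over regions at or above the 50th percentile of tag sums the mean was 0.18, over regions up to 1 kb it was 0.28, and the median over single regions gave 0.54. Because all rats share the same regions and genome, this test covers the spread between rats and not the choice of chromosome. Set directly against chromosome 20, the most similar in tags per kb, the log2 ratio was 0.06 ± 0.02 (SD), between 0.04 and 0.10, and above 0 in 10 of 10 rats. Against chromosome 10, the most similar in regions per Mb, it was 0.37 ± 0.07 (SD), also above 0 in 10 of 10.

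**Figure D1:**
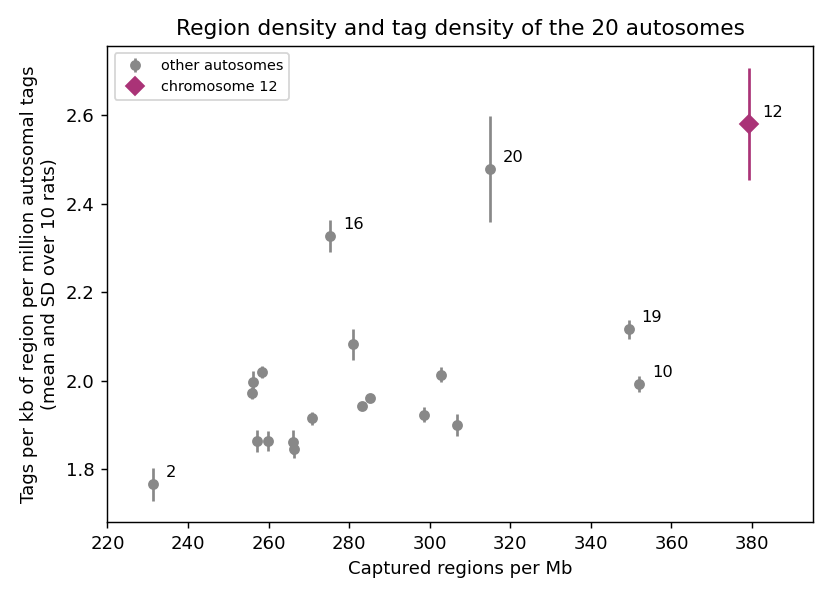
Each point is an autosome, with captured regions per Mb on the horizontal axis and normalised tags per kb of region (per 1000000 autosomal tags) on the vertical axis (mean and SD over 10 rats). Chromosome 12 lies at the right and at the top, at 379.3 regions per Mb and 2.581 tags per kb, while chromosome 20 is close to it in tags per kb but has 314.9 regions per Mb.

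In pooled tags, the excess was present in regions of ordinary length and not in the longest. Within length classes, the log2 ratio of tags per kb on chromosome 12 to the other autosomes was 0.33 ± 0.09 (SD, n = 10) for 979 regions under 300 bp and 0.34 ± 0.08 for 3836 regions of 300 to under 500 bp. It was 0.21 ± 0.05 for 7861 regions of 500 to under 1000 bp, 0.19 ± 0.04 for 4064 regions of 1000 to under 2000 bp and 0.16 ± 0.03 for 758 regions of 2000 to under 3000 bp. In each of these classes 10 of 10 rats were above 0. In the 245 regions of 3000 bp or more the ratio was −0.01 ± 0.06, with 5 of 10 rats above 0. The median over single regions of this class was still higher on chromosome 12, at 699.3 tags per kb over all rats against 651.1. From 2000 to under 3000 bp these medians were 586.7 and 535.5. With all rats summed, chromosome 12 had 234.7 tags per kb under 300 bp, 220.8 from 300 to under 500 bp and then more in each longer class, up to 780.0 at 3000 bp or more. The other autosomes went from 188.0 through 176.1 to 778.5 over the same classes. The longer classes also made up more of chromosome 12: regions of 1000 to under 2000 bp were 22.9% of its regions and 14.31% of the others, and those of 300 to under 500 bp were 21.62% against 31.47%.

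**Figure D2:**
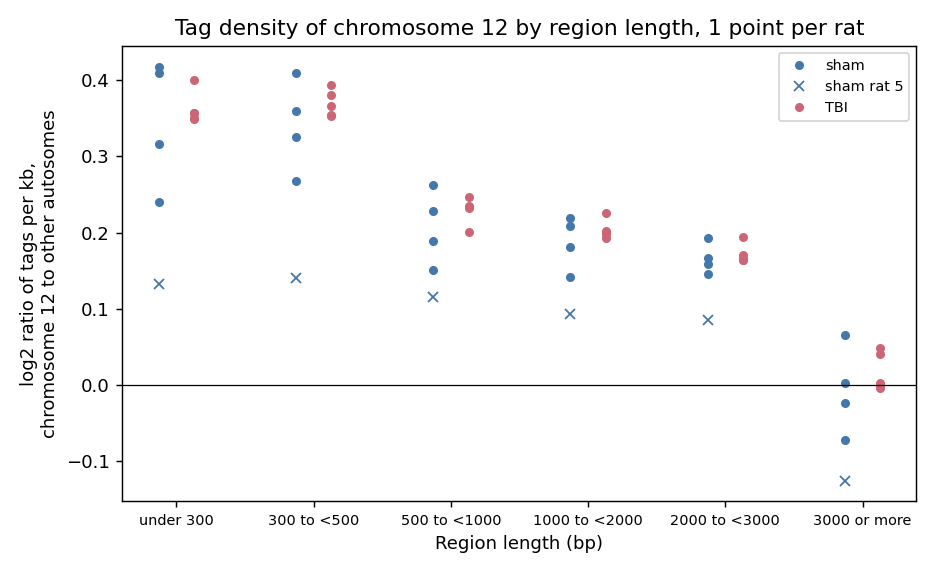
Log2 ratio of tags per kb on chromosome 12 to the other autosomes (vertical axis) in 6 classes of region length in bp (horizontal axis), with 1 point per rat, sham in blue and TBI in red, and sham rat 5 as a cross. The points fall from a mean of 0.33 under 300 bp to −0.01 at 3000 bp or more, and sham rat 5 is the lowest in every class.

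A few regions held a large share of the tags. The 177 regions with the most tags, the top 1%, held 11.67% of the tags of chromosome 12. The region with the most tags per kb (of those at least 200 bp long) was chr12:44066031-44067219, at 33969 tags per kb over all rats. Its tags per 1000000 after library scaling (CPM) were 555.0, 257.7, 190.1, 160.8 and 133.5 in sham rats 1 to 5 and 583.0, 101.9, 171.0, 100.4 and 402.9 in TBI rats 1 to 5. Sham rat 1, TBI rat 1 and TBI rat 5 were high and the groups overlapped over their whole range (log2 fold change 0.07 ± 0.43 SE, edgeR adjusted p = 1). The next were chr12:4414414-4415684, at 25098 tags per kb, and chr12:4359648-4362361, at 20083 tags per kb. The latter varied less, from 222.9 CPM in sham rat 5 to 407.6 CPM in sham rat 4. These 3 regions held 1.759% of the tags of chromosome 12. In each of them at least 4 rats had more than 2 tags per base, up to 6.546 tags per base, although the methods state that reads at the same position were removed, which would leave at most 1 tag per strand and position. How these counts arose was not tested.

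Along the chromosome, 47 bins of 1 Mb held 44 to 491 regions, with a median of 420. Of these bins, 29 (61.7%) held 400 regions or more, against 533 of 2524 bins (21.12%) on the other autosomes. High counts were therefore spread over most of the chromosome, and 14.1% of bins elsewhere exceeded the chromosome 12 median. The fullest bins were 40 to 41 Mb with 491 regions, 7 to 8 Mb with 490, 10 to 11 Mb with 482, and 25 to 26 and 28 to 29 Mb with 465 each. The emptiest was 18 to 19 Mb with 44 regions, followed by 0 to 1 Mb with 117, 20 to 21 Mb with 134, 1 to 2 Mb with 173 and 19 to 20 Mb with 181. The longest stretch without a region ran from 20052633 to 20581437 (528.8 kb), and the 5 longest such stretches all lay between 16889777 and 20581437.

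**Figure D3:**
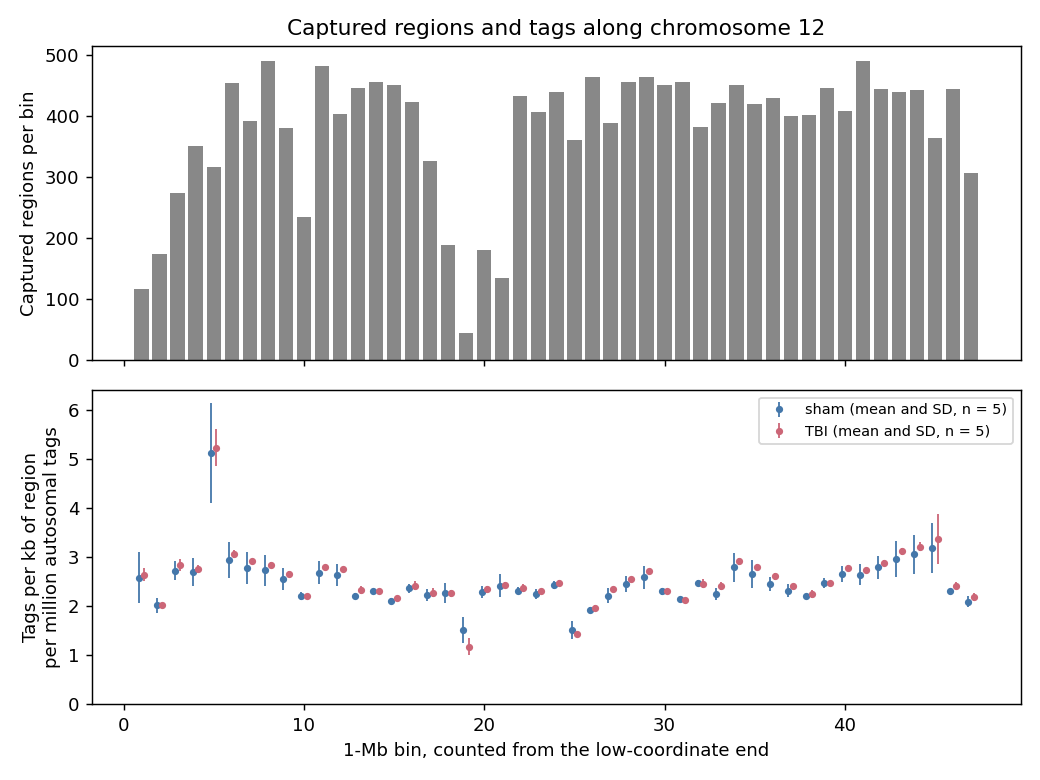
Captured regions per bin (upper panel) and normalised tags per kb of region (per 1000000 autosomal tags) (lower panel, mean and SD of 5 sham and 5 TBI rats) in the 47 bins of 1 Mb, counted from the low-coordinate end of chromosome 12. Region counts dip to 44 in the nineteenth bin, and tag density peaks in the fifth bin at 5.132 (sham) and 5.241 (TBI).

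From the low-coordinate end to the other, region density rose by stretch. It was 318.3 regions per Mb in the first 10 Mb, 340.1 from 10 to 20 Mb, 400.2 from 20 to 30 Mb, 422.2 from 30 to 40 Mb and 432.9 from 40 Mb to the end, where regions covered 42.17% of the sequence. Tag density did not follow the same course. In sham rats it was 2.897 ± 0.340 normalised tags per kb (SD, n = 5) in the first stretch, fell to 2.263 ± 0.0927 from 20 to 30 Mb and was 2.769 ± 0.249 in the last. In TBI rats the same stretches had 2.998 ± 0.0741, 2.323 ± 0.0224 and 2.897 ± 0.0437. The median over single regions, with all rats summed, was instead highest in the last stretch. It was 323.6 tags per kb in the first, 280.5 from 20 to 30 Mb and 335.5 in the last. Over the 47 bins the number of regions and tags per kb had a Pearson correlation of 0.19 and a Spearman correlation of 0.20, while median length and tags per kb had 0.47 and 0.70. These correlations are descriptions over bins that share the same libraries and sequence context.

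The bin at 4 to 5 Mb had the highest tag density, 920.9 tags per kb over all rats, against a median of 437 over the bins of chromosome 12. Of its 316 regions, 5 held at least 5000 tags per kb, and chromosome 12 had 6 such regions in all. These 5 lay within 56.04 kb, from 4359648 to 4415684, and carried 47.36% of the tags of the bin. Without them the bin had 498.3 tags per kb. A pair of them, chr12:4369173-4370392 and chr12:4389479-4390698, had the same length of 1219 bp. The files name no gene or repeat there, and the RN4 sequence was not used here, so no sequence is shown.

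Over the whole chromosome, normalised tags per kb varied most between rats of all 20 autosomes. The SD was 0.127, against 0.0072 to 0.120 on the others (median 0.0218), with chromosome 20 the nearest. By bin, the coefficient of variation of tag density over 10 rats had a median of 5.50% over the 47 bins, and 3.55% without sham rat 5. It reached 20.7% in the bin at 18 to 19 Mb, which held the fewest regions, and 15.2% in the bin at 44 to 45 Mb. In the latter, leaving out chr12:44066031-44067219 alone brought it to 5.46%. For single tested regions, the median SD of log2(CPM + 0.5) between rats of a group was 0.290 on chromosome 12, slightly below the 0.295 to 0.314 of the other autosomes (0.257 against 0.259 to 0.279 without sham rat 5). Among regions of 2 to 4 CPM, where levels are alike, it was 0.272 against 0.275 to 0.285, and second lowest without sham rat 5. These small differences were not tested.

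As a view of the sequence that does not use the capture, the RefSeq promoters of the current assembly (GRCr8, 300 bases around each start) were searched for the letters CG, which read the same on both strands. The 1065 promoters on chromosome 12 held 13.61 CG pairs on average, the most of the 20 autosomes by a small margin (others 10.17 to 13.56). Chromosomes 10 (13.56), 5 (13.53), 14 (13.41) and 6 (13.36) were close. The median of 9 pairs was shared with chromosomes 5, 6 and 10. The share of promoters with 15 or more pairs was 37.18%, the third highest (others 25.6% to 40.47%). This describes promoters of another assembly, and no captured region was placed on it.

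The comparison of TBI with sham asked whether the injury changed methylation in the hippocampus. Sham rat 5 stood apart before any comparison. In that rat 0.423% of chromosome 12 regions had no tag, against 3.15% to 8.66% in the other 9 rats. Over the whole matrix, the 1% of regions with the most tags in that rat held 8.81% of its tags. The other 9 rats had 11.68% to 15.19% by the same measure. Results are therefore given with and without it, and its part in each was not tested beyond that. Libraries held 13597924 to 21672940 tags, and the median count per chromosome 12 region was 14 to 25.

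The share of autosomal tags on chromosome 12 did not differ detectably between groups. It was 4.144%, 3.870%, 4.063%, 4.271% and 3.560% in sham rats 1 to 5 and 4.057%, 4.144%, 4.135%, 4.123% and 4.129% in TBI rats 1 to 5. The TBI values lay inside the sham range. The means were 3.982% ± 0.277 (SD, n = 5) and 4.117% ± 0.0346, a difference of 0.136 percentage points (exact two-sided permutation p = 0.365, adjusted over 20 autosomes 0.774). Without sham rat 5 the difference was 0.0306 points (exact permutation p = 0.690). The log2 ratio of tags per kb to the other autosomes differed by 0.05 (exact permutation p = 0.365) and by 0.01 without sham rat 5.

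**Figure D4:**
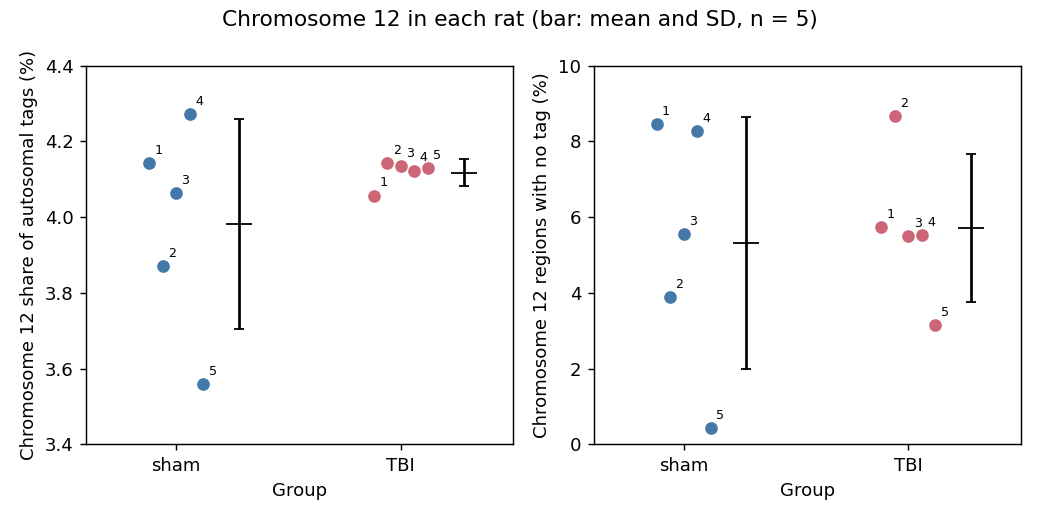
Chromosome 12 share of autosomal tags (left, axis from 3.4 to 4.4%) and share of chromosome 12 regions with no tag (right) in each rat, numbered by rat, with the mean and SD of each group (n = 5) as a black bar. Sham rat 5 is the lowest in both panels, at 3.560% and 0.423%, and the TBI shares lie between 4.057% and 4.144%.

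No 1-Mb bin of chromosome 12 passed adjustment for multiple testing. Fitted with edgeR over 2726 bins of the whole matrix, 0 bins had an adjusted p under 0.05 (background 0%), and 3 of 47 had an unadjusted p under 0.05 (6.38%, against 2.93% of all bins). Without sham rat 5 these counts were 0 (background 0%) and 2 (4.26%, against 5.65%). The direction was shared: 45 of 47 bins (95.7%) had a log2 fold change above 0, against 44.9% of all bins. Without sham rat 5 this fell to 32 of 47 (68.1%, against 47.7%). Bins of the same chromosome share the 10 libraries, so their directions are not independent.

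The 3 bins with the smallest p all overlapped between groups. The bin at 18 to 19 Mb, the emptiest, had 1.714, 1.379, 1.109, 1.733 and 1.635 normalised tags per kb in sham rats 1 to 5 and 1.264, 1.081, 1.377, 0.924 and 1.220 in TBI rats 1 to 5. TBI rats were lower on average, with sham rat 3 among them (log2 fold change −0.35 ± 0.142 SE, edgeR adjusted p = 0.853; −0.33 without sham rat 5). The other bins were higher in TBI. They were 12 to 13 Mb, with 2.218 ± 0.0580 in sham and 2.333 ± 0.0818 in TBI (SD), and 45 to 46 Mb, with 2.318 ± 0.0307 and 2.425 ± 0.0810. Their log2 fold changes were 0.09 and 0.08, or 0.07 each without sham rat 5, in which case the bin at 12 to 13 Mb no longer had an unadjusted p under 0.05.

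**Figure D5:**
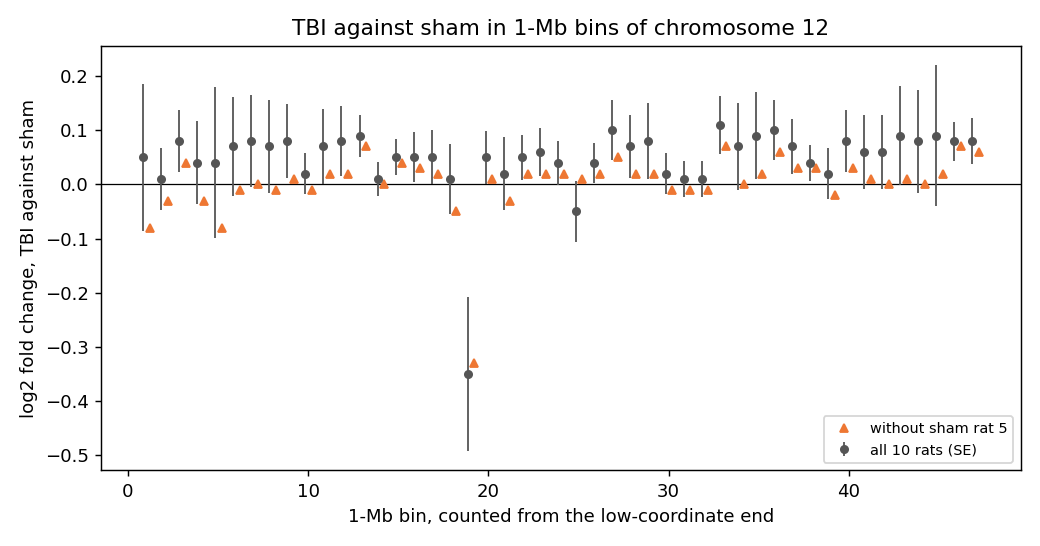
Log2 fold change of TBI against sham in each 1-Mb bin of chromosome 12, counted from the low-coordinate end, from all 10 rats (grey, with SE) and without sham rat 5 (orange). With all rats 45 of 47 bins lie above 0, and the nineteenth bin lies lowest at −0.35; without sham rat 5, 32 lie above 0.

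Single regions gave 35 of 11684 with p under 0.01 in edgeR's quasi-likelihood test (0.300%), close to the 0.266% of all tested regions. Of these 17 were higher in TBI (0.145% of the tested, against a background of 0.098%) and 18 were lower (0.154%, against 0.168%). At p under 0.05 there were 311 (2.66%, against 2.45%). If no region differed and the test were exact, both thresholds would give larger shares, so the calls are not an excess. None had an adjusted p under 0.05, here or in the whole matrix (0%). Values of the groups did not overlap in 60 regions (0.514%, against 0.502%). With library totals in place of trimmed-mean scaling (TMM), 60.53% of the called regions of chromosome 12 were higher in TBI, against 48.57% under TMM; over all chromosomes these were 51.84% and 36.87%. The median log2 fold change over tested regions was 0.009 on chromosome 12 and −0.019 over all.

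Calls moved with single libraries. Without sham rat 5 there were 104 of 11662 regions with p under 0.01 (0.892%, against 0.792%), 67 of them higher in TBI (0.575%, against 0.397%) and 37 lower (0.317%, against 0.396%), and 567 at p under 0.05 (4.86%, against 4.59%). No chromosome 12 region passed adjustment, against 0.0039% of all regions. Of the 17 higher and 18 lower regions, 11 and 7 were also called without sham rat 5. The number of calls was 53 without sham rat 1 (0.453%, against 0.433% of all tested regions) and 93 without sham rat 4 (0.793%, against 0.727%). It was 20 without TBI rat 3 (0.171%, against 0.171%) and 22 without TBI rat 4 (0.188%, against 0.178%), so the share on chromosome 12 moved with that of the whole matrix. With no filter beyond 1 tag there were 120 calls of 17727 (0.677%, against 0.535%), 29 higher (0.164%, against 0.092%) and 91 lower (0.513%, against 0.443%).

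The 17 higher regions lay in 17 different bins and had a median length of 779 bp, with log2 fold changes from 0.46 to 1.10. The 18 lower regions lay in 13 bins and had a median length of 1109.5 bp, with log2 fold changes from −3.11 to −0.46. Regions not called reached −3.2 in the same fit. Without sham rat 5 the lowest values were −1.16 among the 37 regions then called lower and −1.19 among those not called. Every named region had an adjusted p of 1 in edgeR with all rats, and 10 of the higher and 5 of the lower did not overlap between groups. A small p and a lack of overlap come from the same values, so the second adds no support to the first. No share over the called regions of the whole matrix is given beside these counts. Among these non-overlapping regions, those with the smallest p in each direction are given in turn, with positions on RN4 as the file gives them.

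The smallest p among the non-overlapping higher regions was at chr12:43193784-43194679 (895 bp). Its levels were 1.309, 1.081, 1.003, 0.878 and 1.560 CPM in sham rats 1 to 5 and 2.286, 3.031, 2.825, 1.777 and 1.657 CPM in TBI rats 1 to 5. All TBI rats were above all sham rats, although TBI rat 5 and sham rat 5 were close (log2 fold change 0.99 ± 0.25 SE). These levels rested on 14 to 56 tags per rat. Without sham rat 5 the log2 fold change was 1.13 (edgeR adjusted p = 0.743).

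A higher and a lower region lay side by side. At chr12:23173973-23174814 the levels were 2.455, 1.775, 2.481, 2.579 and 2.034 CPM in sham rats 1 to 5 and 4.178, 3.175, 2.977, 3.726 and 3.365 CPM in TBI rats 1 to 5 (log2 fold change 0.61 ± 0.18 SE). At chr12:23171174-23173665, 308 bp before it, they were 5.40, 6.484, 5.385, 5.597 and 6.849 CPM in sham rats and 4.651, 4.691, 3.229, 4.930 and 4.193 CPM in TBI rats (−0.46 ± 0.16 SE). TBI was thus higher in the first and lower in the second with no overlap in either. The lower region was no longer called without sham rat 5 (log2 fold change −0.40), and the higher one was (0.57). The summed means of the pair were 8.208 CPM in sham and 7.823 CPM in TBI.

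The other 3 higher regions had log2 fold changes of 0.46 to 0.69. At chr12:25243698-25245519 sham rats had 4.746, 4.168, 4.646, 4.225 and 4.340 CPM and TBI rats 6.622, 5.629, 5.954, 5.618 and 6.627 CPM, a gap wider than the spread of either group's SD (0.257 and 0.506 CPM; log2 fold change 0.46 ± 0.14 SE). At chr12:46226328-46227456 the means were 2.511 ± 0.212 CPM in sham and 3.776 ± 0.753 CPM in TBI (0.59 ± 0.18 SE). At chr12:13526813-13528075 they were 1.711 ± 0.383 and 2.719 ± 0.521 CPM (0.69 ± 0.22 SE). All 3 kept a p under 0.01 without sham rat 5, but each lost it when some other single rat was left out.

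Among the 5 non-overlapping lower regions the smallest p was at chr12:6848119-6849193, with 1.800, 2.702, 2.693, 2.030 and 3.865 CPM in sham rats 1 to 5 and 1.340, 1.588, 0.959, 1.605 and 1.657 CPM in TBI rats 1 to 5. Sham rat 5 was the highest of all, and the log2 fold change moved from −0.87 ± 0.24 (SE) to −0.70 without it. At chr12:14551190-14552467 the means were 3.819 ± 0.592 CPM in sham and 2.411 ± 0.456 CPM in TBI (−0.64 ± 0.18 SE), and at chr12:45752834-45753677 they were 5.086 ± 0.521 and 3.570 ± 0.288 CPM (−0.51 ± 0.15 SE). At chr12:4049990-4051153 the sham rats had 4.009, 3.628, 3.379, 3.127 and 4.950 CPM and the TBI rats 2.917, 2.526, 2.321, 2.866 and 2.589 CPM. Its log2 fold change moved from −0.53 ± 0.17 (SE) to −0.41 without sham rat 5, and it was then no longer called.

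The 3 longest regions were not called, each with an edgeR adjusted p of 1. The longest, chr12:3224255-3234301 (10046 bp), had 68.64 ± 13.9 CPM in sham and 72.61 ± 3.55 CPM in TBI. Next came chr12:41986770-41996360 (9590 bp), with 47.41 ± 6.93 and 45.69 ± 3.83 CPM, and chr12:134042-141591 (7549 bp), with 80.82 ± 23.7 and 82.81 ± 4.16 CPM. Sham rat 5 was the lowest rat in all 3, at 42.52 CPM in the last against 76.8 to 105.5 CPM in the other 9.

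The study also listed regions in introns that changed in TBI and in another epilepsy model. Of these, 3 overlap chromosome 12 regions of the matrix by at least 1 bp. Since that list was chosen on these samples, the values here are not independent evidence of a direction. The only named gene is Tmem132d, which encodes a single-pass membrane protein of the brain; its region chr12:29955458-29956682, within an intron per that list, had 7.855, 5.403, 6.758, 7.791 and 3.662 CPM in sham rats 1 to 5 and 4.966, 6.134, 4.490, 4.471 and 4.918 CPM in TBI rats 1 to 5. Sham rat 5 was below every TBI rat and sham rat 2 was below TBI rat 2, so the groups overlapped. The log2 fold change was −0.34 ± 0.19 (SE, edgeR adjusted p = 1) and −0.48 without sham rat 5, where it was called at p under 0.01 (edgeR adjusted p = 0.996). The others, chr12:1587510-1589489 and chr12:21647887-21652227, are listed under the identifiers D3ZXM4_RAT and F1MAE0_RAT. They had log2 fold changes of 0.32 ± 0.14 (SE) and 0.20 ± 0.13 (SE), neither called. The second is 4340 bp long in the matrix, wider than the interval the study lists. Per its methods, the study found common regions by intersecting those of different models, which can give shorter intervals.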

How the data were processed

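The deposited matrix holds raw tag counts per region for 5 sham and 5 TBI rats. Per the methods of the study, the authors aligned reads to RN4 with BWA and compared every pair of libraries with MACS. They merged the regions that differed between pairs with BEDTools, removed reads at the same position and counted tags. Those methods give 4 control rats for methylation, and the matrix has 5 sham columns, all of which were used. Whether positions count from 0 or 1 is not given in the sources used here.

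Tests used edgeR 4.0.16 (quasi-likelihood, TMM, R 4.3.3) on regions with a summed count of at least 117 tags (the 50th percentile) and on 1-Mb bins, fitted over the whole matrix with p-values adjusted by Benjamini-Hochberg. A called region had p under 0.01, unadjusted. CPM are tags per 1000000 after TMM scaling. Shares used exact two-sided permutation tests over rats (smallest possible p 0.00794) or sign flips. The chromosome, the lists and the tests were chosen with earlier results of these data known. Named regions were those with the 5 smallest p in each direction among called regions without overlap, the 3 longest, the 3 with most tags per kb and those in the study's common list; named bins were the 5 fullest, the 5 emptiest and the 3 with the smallest p. Alternatives were DESeq2 1.42.0, other scalings, filters and bin sizes, and leaving out each rat. In simulated counts for 40000 regions, 43% of changes of log2 1 and 93% of log2 2 had an adjusted p under 0.05. Of the unchanged simulated regions 0.915% had p under 0.01, against 0.266% of all tested regions in the data. The simulation gave no rat a deviation of its own, so its shares recovered may be too high for these data. Rats are taken as separate animals from their labels.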

Additional observations from a re-analysis of the deposited data

Results flagged for a closer look

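In 50 sets of 5 rats, 2 values lay far from the rest of their group (Dixon's gap ratio for 5 values); chance flags about 1 in 20, or 2.5 here. Both belong to TBI rat 1. Its chromosome 12 share of autosomal tags was 4.057%, with the nearest TBI rat at 4.123%. Its log2 ratio of chromosome 12 tags per kb to the other autosomes was 0.396, with the nearest TBI rat at 0.420. Both values lie inside the range of the sham rats, and the other 4 TBI rats were close to each other.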

How the results depend on the processing

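No paired analysis was possible because the rats carry separate numbers in the 2 groups. The density of chromosome 12 relative to the other autosomes, its share in TBI against sham and the count of 0 adjusted calls kept their direction and their side of the threshold under every alternative run for them; leaving out 1 rat at a time moved the log2 ratio between 0.383 and 0.413 and the share difference between 0.0306 and 0.208 points. The number of regions with p under 0.01 was 35 and was 29 to 38 under other scalings, DESeq2, a minimum of 10 tags in every rat and autosomes alone. It was 120 with no filter beyond 1 tag (0.677% of tested, against 0.535% over the whole matrix) and ran from 20 without TBI rat 3 (0.171%, against 0.171%) to 104 without sham rat 5 (0.892%, against 0.792%); the cause was not tested. Bins with an unadjusted p under 0.05 ran from 0 to 8 when 1 rat was left out, and bins above 0 from 32 to 45; these were 40 of 47 with library totals and 24 of 24 with 2-Mb bins. The named called regions kept their direction throughout, but most of them did not keep a p under 0.01 in every alternative. Among the longest and densest regions, none of them called, the log2 fold change changed sign or reached 0.00 when 1 rat was left out. It ran from −0.02 to 0.16 at chr12:3224255-3234301, from −0.12 to 0.00 at chr12:41986770-41996360, from −0.13 to 0.15 at chr12:134042-141591, from −0.42 to 0.55 at chr12:44066031-44067219, from −0.18 to 0.12 at chr12:4414414-4415684 (0.02 with library totals) and from −0.18 to 0.01 at chr12:4359648-4362361. Depth of 14 to 25 tags for the median region limits what single regions can show.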

Other observations

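With sham rat 5 left out, the 67 regions called higher in TBI lay in 32 bins, and 8 of them fell in the bin at 26 to 27 Mb, which had 257 tested regions (3.11%, against 0.397% called higher over the whole matrix in that fit, in a bin picked for its count). No other bin had more than 6 called regions. The 8 spanned 644.0 kb, from 26011636 to 26655651, and had log2 fold changes of 0.59 to 1.31. With all rats 0 of the 8 had p under 0.01 in edgeR and 4 had p under 0.05, and none passed adjustment in either fit. Its summed tags had a log2 fold change of 0.10 with all rats (edgeR adjusted p = 0.853) and 0.05 without sham rat 5 (edgeR adjusted p = 0.820).

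In the bin at 18 to 19 Mb, the region with the most tags, chr12:18257967-18259372 (1405 bp), held 11.16% of the tags of the bin. Without it the means were 1.422 ± 0.234 normalised tags per kb in sham and 1.116 ± 0.154 in TBI (SD, n = 5).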
